A study of Mus musculus with 6 samples.

Results

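Regulators and markers of the fat cell lineage, 10 genes in all, were followed in DR4 mouse embryonic fibroblasts, which serve as a feeder layer under embryonic stem cells. They are the transcription factors Pparg, Cebpa, Cebpb, Cebpd and Ebf1, the preadipocyte protein Pref1 (now Dlk1), and the lipid handling genes and products Lpl, Cd36, Fabp4 and Adipoq. All of them were found by their symbol, among 18193 genes that the 2 array types name, and together they have 23 probe sets, 20 on the Affymetrix array MOE430A and 3 on MOE430B. A probe set is the group of short oligonucleotides that measures a transcript. The cells came from embryos of day 15 and were grown with 15% serum and LIF, a cytokine that keeps stem cells undifferentiated, on 0.1% gelatin. DR4 names a mouse strain that carries several drug resistance genes. No other genotype, treatment or stem cell line enters the values below, and the labels do not say whether the feeder cells had been stopped from dividing. RNA of 3 replicates went on each array type, from 12x10e6 cells in replicate 1 and from 3x10e6 cells in each of replicates 2 and 3, in the labels' notation.

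Fat cells form from fibroblast-like precursors. In the cascade worked out in mouse preadipocyte lines, hormonal inducers switch on C/EBP beta and C/EBP delta, which turn on the nuclear receptor PPAR gamma and C/EBP alpha. These last regulators keep each other on and drive the genes of the mature fat cell, such as the fatty acid carrier Fabp4, the fatty acid translocase Cd36 and the hormone adiponectin (Adipoq). Ebf1 promotes this course, and Pref1, a membrane protein of preadipocytes, holds it back.

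DR4 cells had the early C/EBP factors, Ebf1, Lpl and a bright Dlk1 signal, while Pparg, Adipoq and Cd36 read among the dimmer probe sets of the array. By gene, 6 of the 10 members (60%) lay above the floor, the median signal of the array, on all 3 arrays of a type with at least 1 probe set. These were Cebpa, Cebpb, Cebpd, Lpl, Ebf1 and Dlk1, and the same rule was met by 54.7% of all genes. By probe set, 8 of 20 members on MOE430A and 2 of 3 on MOE430B lay above it, against 42.4% and 37.2% of all probe sets. The members' shares are therefore close to those of any gene, and what follows is which of them were above. A gene with more probe sets has more chances to pass this rule. Probe sets also differ in how brightly they bind, so their signals give no order of abundance between genes, and a signal under the floor does not show that a transcript is absent.

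For replicates 1, 2 and 3 the floor was a signal of 689, 685 and 734 on MOE430A, and of 849, 917 and 907 on MOE430B. The array types were scaled apart: 100 probe sets present on both read 2.74 to 5.01 times as high on MOE430B. No level is therefore compared across types, except in choosing which genes of a list to name. Of the fibroblast markers, 11 of 11 measured were above the floor, the brightest being Vim (130581 to 164029), Col1a2 (119800 to 169211), Sparc (103001 to 122123) and Col1a1 (80483 to 133057). Values are MAS5 signal intensities, given for replicates 1, 2 and 3 in this order, then as mean ± SD (n = 3 arrays). The labels do not say whether the replicates were grown apart, so every p-value rests on a spread that may be technical, and the number of arrays limits the precision.

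**Figure D1:**
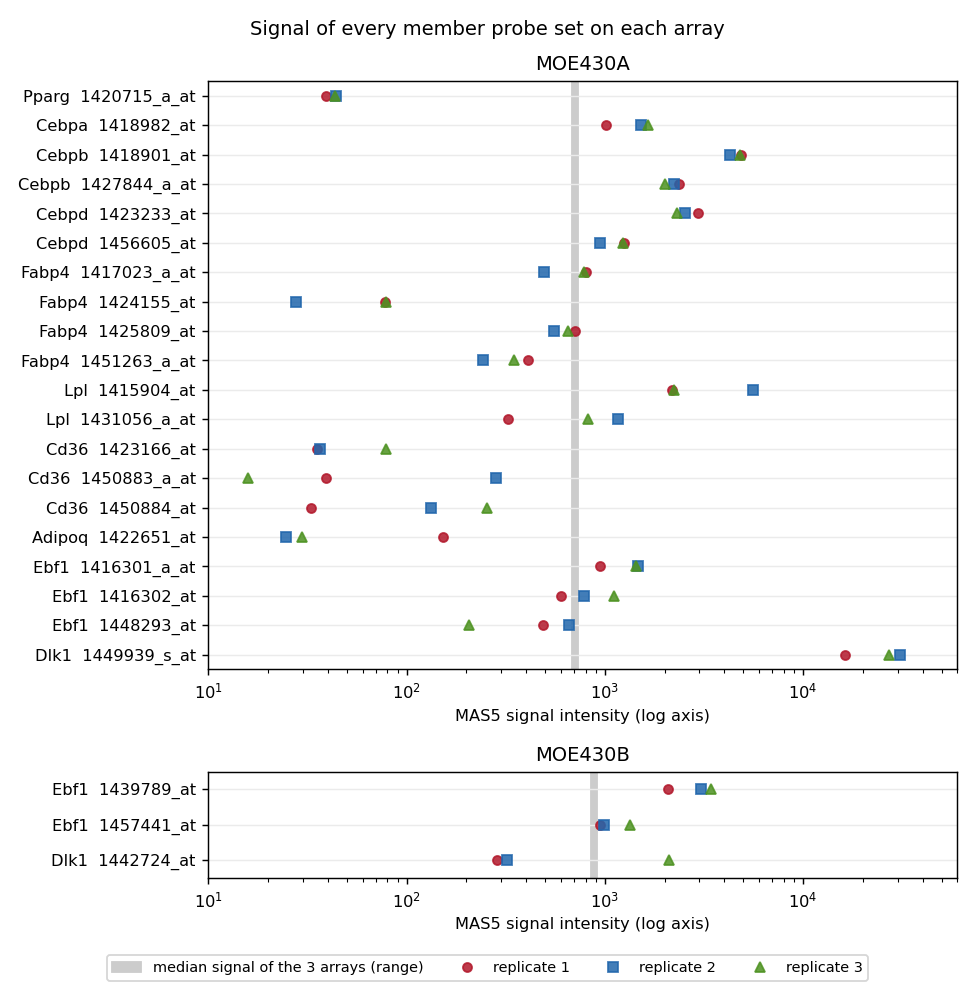
MAS5 signal intensity (log axis) of each of the 23 member probe sets, 20 on MOE430A (top) and 3 on MOE430B (bottom), with 1 point per array and the range of the 3 array medians in grey. The probe sets of Cebpa, Cebpb and Cebpd and the Dlk1 probe set on MOE430A lie right of the grey band on all 3 arrays, and those of Pparg, Cd36 and Adipoq lie left of it on all 3.

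The early factors Cebpb and Cebpd, basic leucine zipper proteins that start the cascade, were the steadiest of the members above the floor. Cebpb had signals of 4838, 4267 and 4824 on probe set 1418901_at (4643 ± 326) and of 2374, 2240 and 2019 on 1427844_a_at (2211 ± 179). All of these values were above the floor, and the arrays were within 1.13-fold and 1.18-fold of each other. On 1418901_at, 90.1% to 91.6% of the probe sets of the array read dimmer. Cebpd had signals of 2940.4, 2524 and 2317 on 1423233_at (2594 ± 318) and of 1252, 943 and 1235 on 1456605_at (1143 ± 174). Replicate 1 was highest on all 4 probe sets of both genes, and limma called none of these differences.

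Cebpa, which joins the cascade later and sustains it with PPAR gamma, was above the floor but nearer to it. Its 1 probe set, 1418982_at, read 1016, 1519 and 1649.9 (1395 ± 335), so replicate 1 was the lowest. With the 75th percentile of the array as the floor Cebpa was no longer above it, while Cebpb, Cebpd, Lpl, Ebf1 and Dlk1 still were. Ebf1 passed only through its MOE430B probe set 1439789_at, and narrowly in replicate 1 (2076 against 2033). No Ebf1 probe set on MOE430A passed.

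Pparg, the receptor on which fat cell formation depends, lay far under the floor. Its 1 probe set, 1420715_a_at, read 39.4, 43.9 and 43.3 (42.2 ± 2.43), with only 5.23% to 6.47% of the array's probe sets dimmer. Whether this probe set would respond to a Pparg transcript in these cells cannot be read from 1 probe set with no fat cell sample on the same arrays.

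The bases before the start sites of these regulators are shown because the members differ in CpG content and core motifs there. RefSeq promoter windows (GRCm38.p6) matched 7 of the 10 members, with 10 start sites, and none matched Cebpd, Lpl or Fabp4. Each was read over the 250 bases before the start, 5′ to 3′ on the strand of the gene. Capitals mark the letters searched. The box named for the letters TATA was searched as TATAAA, on the strand of the gene only. The others were searched on both strands, namely the box CCAAT, the GC box as GGGCGG, the core of the cAMP response element as TGACG, the core bound by nuclear receptors as AGGTCA, and the C/EBP palindrome as TTGCGCAA. The windows of Cebpa (chr7:35119043-35119292, plus strand), Cebpb (chr2:167688665-167688914, plus strand) and the most downstream of 3 Pparg start sites (chr6:115421816-115422065, plus strand) read as follows.
Cebpa: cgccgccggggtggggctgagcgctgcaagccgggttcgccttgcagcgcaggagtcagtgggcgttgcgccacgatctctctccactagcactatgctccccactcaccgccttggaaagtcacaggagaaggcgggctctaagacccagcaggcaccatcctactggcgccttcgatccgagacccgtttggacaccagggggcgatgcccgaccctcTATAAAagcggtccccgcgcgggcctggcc
Cebpb: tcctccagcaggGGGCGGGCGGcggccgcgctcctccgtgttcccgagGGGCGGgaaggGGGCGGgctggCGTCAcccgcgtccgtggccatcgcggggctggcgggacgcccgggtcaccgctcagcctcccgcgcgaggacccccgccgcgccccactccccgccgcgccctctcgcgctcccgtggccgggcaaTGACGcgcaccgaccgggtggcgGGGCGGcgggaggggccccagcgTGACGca
Pparg start 3: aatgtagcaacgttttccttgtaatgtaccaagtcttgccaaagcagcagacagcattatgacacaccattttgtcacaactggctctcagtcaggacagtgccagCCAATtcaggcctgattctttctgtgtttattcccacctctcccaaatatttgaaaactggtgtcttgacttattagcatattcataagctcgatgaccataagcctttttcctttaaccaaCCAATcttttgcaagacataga
Cebpb had 41 CpG dinucleotides in this window, more than 98.9% of the 32851 start sites in RefSeq, and Cebpa had 22, more than 85.2%. The median over all start sites was 6. Cebpa held the TATA box, found in 7.59% of all windows, with its first base 30 bases before the start.

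The Cebpb window held 5 GC boxes, a pair of them overlapping, and 3 matches to the cAMP response element core. GC boxes were found in 32.7% and this core in 17.8% of all windows. The 3 Pparg start sites differed widely, with 38, 12 and 2 CpG dinucleotides. The nuclear receptor core, present in 14.0% of all windows, matched once in each of the upstream 2 Pparg windows and not in the third, which held 2 CCAAT boxes. The C/EBP palindrome, in 0.164% of all windows, was in none of the 10 member windows. A match is a description of letters and not a bound site. Pparg, with a CpG-rich start site, was under the floor, so CpG content and the floor did not go together in every member.

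Ebf1, an early B cell factor that also promotes fat cell formation, has 5 probe sets, and they did not read alike. On MOE430A, 1416301_a_at read 944, 1461 and 1439.8 (1282 ± 293), above the floor on all 3 arrays. On MOE430B, 1439789_at read 2076, 3071 and 3446 (2864 ± 708) and 1457441_at read 946, 991 and 1342 (1093 ± 217), both above their floor on all 3. All 3 of these had their lowest value in replicate 1. On MOE430A, 1416302_at read 599, 782 and 1111 (831 ± 260), under the floor in replicate 1 only. The fifth, 1448293_at, read 486, 656 and 207 (449.5 ± 227) and was under it on all 3. Set against the brightest of the bacterial tryptophan controls, which have no mouse target, 1457441_at was under it on all 3 arrays, so this probe set alone would not place Ebf1 above background. The Ebf1 start sites had 9 and 14 CpG dinucleotides and none of the motifs searched.

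Dlk1 (Pref1), the membrane-bound inhibitor whose shed outer part acts on preadipocytes, was the brightest member probe set. On MOE430A its probe set 1449939_s_at read 16263, 30716 and 27118 (24699 ± 7524), with 97.9% to 98.9% of the array's probe sets dimmer. Replicates 2 and 3 were both higher than replicate 1, 1.89-fold between the highest and lowest array. The suffix _s_at marks probe sets that Affymetrix designed on sequence shared by several transcripts, so part of this signal may not be Dlk1. The second probe set, 1442724_at on MOE430B, read 285, 319.9 and 2106 (904 ± 1042), above its floor in replicate 3 only. The 2 probe sets thus gave Dlk1 a different standing, and the gene counted as above the floor through the first alone. The Dlk1 window (chr12:109452573-109452822, plus strand) is shown as that of the brightest member, with capitals as before.
Dlk1: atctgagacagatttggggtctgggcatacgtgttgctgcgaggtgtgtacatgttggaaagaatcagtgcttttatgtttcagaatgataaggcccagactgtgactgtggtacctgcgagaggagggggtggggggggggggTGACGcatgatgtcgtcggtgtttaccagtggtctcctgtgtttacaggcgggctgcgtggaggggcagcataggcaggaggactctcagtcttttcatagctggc
It had 8 CpG dinucleotides and 1 match to the cAMP response element core. Adam17, the protease that sheds the outer part of Pref1, was above the floor on all 3 of its probe sets, at 1883 ± 213 on the brightest.

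Lpl, the lipase that frees fatty acids from circulating lipoproteins, was the member above the floor whose level varied most. Probe set 1415904_at read 2185, 5606 and 2232 (3341 ± 1962), so replicate 2 was 2.57-fold above replicate 1 while replicates 1 and 3 lay close together. Its SD was 0.77 on the log2(signal + 16) scale, larger than that of 98.5% of the MOE430A probe sets above the floor. The second, 1431056_a_at, read 324, 1158 and 827 (770 ± 420), under the floor in replicate 1. Replicate 2 was highest on both. Of the 8 member probe sets above the floor on MOE430A, only 1415904_at spanned at least 2-fold between arrays, as did 7.57% of all probe sets above it.

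Lpl is also made by macrophages and muscle. Of the macrophage markers 4 of 12 were above the floor, beside 54.7% of all genes. The summed MOE430A signal of all 12, with those under the floor, was 8663, 9515 and 8398 in replicates 1, 2 and 3. The single markers did not run together. Of those above the floor, Lyz2 (2279, 2443 and 1367) and Cd14 (801, 1392 and 970.1) were highest in replicate 2, and Csf1r (1945, 1694 and 1940.4) was lowest there, while Fcgr1 counted through another probe set than its MOE430A value (326 ± 142). The defining markers Adgre1 (652 ± 26.3), Cd68 (739.7 ± 38.0) and Itgam (191 ± 90.2) were not above it on all 3 arrays. Skeletal muscle markers, 2 of 8 above the floor, had a summed signal of 5542, 4416 and 4442 over all 8. Those above the floor did not run together either, with Des at 1314, 991 and 1023 and Ckm at 895, 1120 and 1178. The part of either cell type in the Lpl values was not tested. In RNA of a whole culture, fewer cells of a type and less RNA per cell cannot be told apart.

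Partners of lipoprotein lipase were measured by 7 of 9 genes on a list, and 5 were above the floor, beside 54.7% of all genes. Gpihbp1, which holds the enzyme on capillary walls, read 4865, 5265 and 4849 on MOE430B (4993 ± 236). Angptl4, an inhibitor of the enzyme, read 2047, 1835 and 3641 (2508 ± 987), and the related endothelial lipase Lipg had 1687 ± 85.9. Vldlr, a lipoprotein receptor, had 1393 ± 279. The activator Apoc2 (446 ± 255) and the inhibitor Apoc3 (335 ± 241) were not above the floor.

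Fabp4, the fatty acid carrier of fat cells, sat around the floor on a pair of its probe sets and below it on the rest. Probe set 1417023_a_at read 800.3, 493 and 785 (693 ± 173), above the floor in replicates 1 and 3. Probe set 1425809_at read 703, 556 and 649 (636 ± 74.6), above it in replicate 1 only. The other two, 1451263_a_at (408, 243 and 348) and 1424155_at (77.6, 27.7 and 78.6), were under it on all 3. Without replicate 2, Fabp4 counted as above the floor and 7 of the 10 members did, beside 57.4% of all genes.

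Cd36, the fatty acid translocase, was under the floor on all 3 of its probe sets. It read 35.4, 36.6 and 78.6 on 1423166_at, 32.8, 133 and 255 on 1450884_at and 39.1, 283 and 15.8 on 1450883_a_at. No fold or order of the arrays is given for signals this dim. Adipoq, the hormone made by mature fat cells, read 153, 24.6 and 29.8 on 1422651_at (69.3 ± 72.9). All 3 values were under the floor, with 2.70% to 19.4% of the array's probe sets dimmer.

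The windows before the Adipoq start (chr16:23146286-23146535, plus strand) and the Cd36 start (chr5:17835897-17836146, minus strand, given on the strand of the gene) are shown beside the CpG-rich Cebpb window above, with capitals as before.
Adipoq: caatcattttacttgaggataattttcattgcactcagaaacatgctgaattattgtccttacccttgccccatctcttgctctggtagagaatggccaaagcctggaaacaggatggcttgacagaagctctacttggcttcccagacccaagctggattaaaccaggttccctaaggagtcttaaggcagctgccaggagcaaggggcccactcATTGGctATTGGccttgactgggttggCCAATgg
Cd36: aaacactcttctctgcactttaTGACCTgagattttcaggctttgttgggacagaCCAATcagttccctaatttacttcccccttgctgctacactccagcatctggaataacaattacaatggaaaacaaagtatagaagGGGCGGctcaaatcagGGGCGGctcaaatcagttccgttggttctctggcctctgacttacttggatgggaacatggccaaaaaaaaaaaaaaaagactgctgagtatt
The Adipoq window held 0 CpG dinucleotides and 3 CCAAT boxes, which were found in 33.8% of all windows. Cd36 had 3 CpG dinucleotides, 2 GC boxes, 1 CCAAT box and 1 nuclear receptor core. Among the members with a window, Adipoq, Cd36 and the third Pparg start had the fewest CpG dinucleotides, and all 3 belong to genes under the floor. The other Pparg starts, with 38 and 12, belong to a gene under the floor too.

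**Figure D2:**
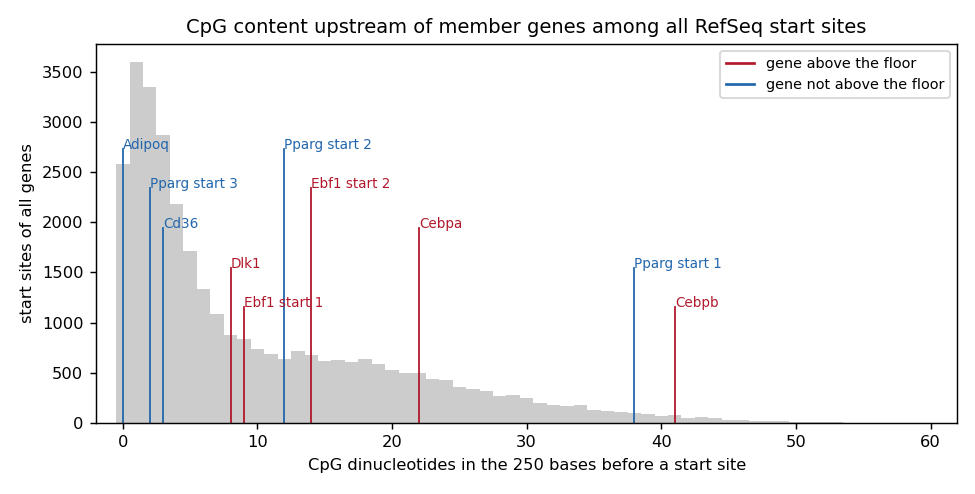
Number of CpG dinucleotides in the 250 bases before each of 32851 RefSeq start sites (grey bars), with the 10 member start sites as lines, red for genes above the floor and blue for the others. Cebpb (41) and the first Pparg start (38) lie at the CpG-rich end, and Adipoq (0), the third Pparg start (2) and Cd36 (3) at the other.

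The replicates were next set against each other by the 1 difference that the labels record, the number of cells and the RNA concentration (12x10e6 cells and 2.4 ug/ul in replicate 1, 3x10e6 and 3.0 in the others). On their tested MOE430A probe sets, Dlk1, Cebpa and Ebf1 were brighter in replicates 2 and 3 than in replicate 1, and Cebpb and Cebpd were brightest in replicate 1. Lpl was brightest in replicate 2, while its replicates 1 and 3 lay close together. None of these differences passed limma's test at an adjusted p of 0.05. In that test 0.705% of MOE430A probe sets were called (78 of 11066), and 0% on MOE430B (0 of 10594, with 767 at an unadjusted p under 0.05). Of the member probe sets 11 were bright enough to be tested and 12 were not, among them every probe set of Pparg, Fabp4, Cd36 and Adipoq. With 1 array against 2, a difference that was not called may still be real. At an unadjusted p under 0.05 stood 1 of the 9 tested member probe sets on MOE430A, beside 8.13% of all, and 0 of 2 on MOE430B, beside 7.24%.

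Dlk1 had the largest difference among the members tested. Replicate 1 was lower by a log2 difference of -0.83 (SE 0.37) on 1449939_s_at, with an unadjusted p of 0.0325 and an adjusted p of 0.524 in limma. Against replicate 2 alone it was -0.92 and against replicate 3 alone -0.74. Replicates 1 and 2 shared a scan day and fluidics station on MOE430A, so the first of these values is within a batch.

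Ebf1 had log2 differences of -0.61 and -0.63 on its 2 tested MOE430A probe sets (adjusted p = 0.742 and 0.743, limma) and of -0.64 and -0.28 on MOE430B (adjusted p = 0.812 and 0.918, limma). Replicates 2 and 3 were both brighter than replicate 1 on all 4. On MOE430B the arrays shared a scan day, and replicate 1 alone was on another fluidics station, so the effects of station and of replicate cannot be told apart on that type. Cebpa had a log2 difference of -0.63 (SE 0.37, adjusted p = 0.73, limma), -0.57 within the shared day.

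For Lpl the log2 difference of -0.69 (SE 0.43, adjusted p = 0.765, limma) hid a disagreement: -1.35 against replicate 2 and -0.03 against replicate 3. Cebpb had differences of 0.09 and 0.16 and Cebpd of 0.28 and 0.21, with adjusted p in limma from 0.95 to 0.983. Replicates 2 and 3 were both brighter than replicate 1 on 5 of the 9 MOE430A member probe sets tested, beside 35.6% of all tested. On MOE430B it was 2 of 2, beside 33.9%. Those on MOE430B and some of those on MOE430A measure the same gene, Ebf1, so these are not counts of separate genes.

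**Figure D3:**
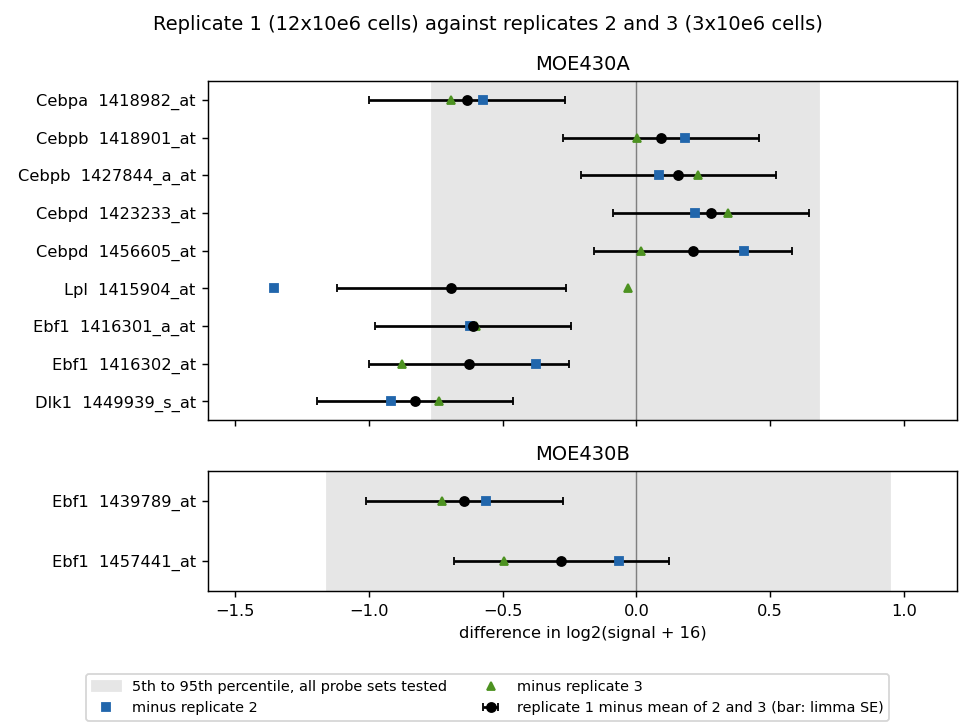
Difference in log2(signal + 16) between replicate 1 and the mean of replicates 2 and 3 (black, bar: limma's SE), and against each of them alone, for the 11 member probe sets tested; grey spans the 5th to 95th percentile of all probe sets tested. Dlk1 (-0.83) lies just outside the grey span, all other members lie inside it, and the Lpl points against replicates 2 and 3 (-1.35 and -0.03) lie far apart.

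Beside the members, lists of genes that act with them were counted, where 54.7% of all genes met the same rule. Of the activators of fat cell formation, with 58 probe sets, 12 of 18 (66.7%) were above the floor, some through another probe set than their brightest on MOE430A. They include Srebf1, a regulator of lipid synthesis (4682 ± 477), Klf4 (3415.5 ± 795), the glucocorticoid receptor Nr3c1 (3082 ± 897) and Rxra, the partner with which PPAR gamma binds DNA (2062 ± 157). Klf15 (22.1 ± 3.77), Egr2 (358 ± 44.3) and Stat5a (886 ± 183) were among the 6 that were not on all 3 arrays. Of the inhibitors 13 of 16 were, with the Wnt effector beta-catenin, Ctnnb1, at 17910.4 ± 1318, Klf3 at 4221 ± 1126, Twist1 at 2658 ± 304 and Zfp521 at 2255 ± 1078. Gata3 (181 ± 133), Wnt10b (132 ± 65.8) and Sox9 (334 ± 109) were not. No probe set of either list was called between replicates.

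Relatives of the members within their families were above the floor in 7 of 13 cases, beside 54.7% of all genes. Fabp5, a carrier found in skin and macrophages, read 2986, 4634 and 2203 (3274 ± 1241). The heart carrier Fabp3 had 1057 ± 48.1, and the liver and gut carriers Fabp1 (336 ± 116), Fabp2 (80.9 ± 105) and Fabp6 (18.2 ± 7.78) were not above the floor. Of the C/EBP relatives, Cebpg had 2061 ± 191 and Ddit3, which blocks other C/EBP factors, 2722 ± 436. The other PPAR receptors counted as above the floor through 1 of 3 probe sets (Ppara) and 1 of 2 (Ppard), while on their brightest MOE430A probe sets they read 61.0 ± 15.7 and 45.3 ± 9.19, under the floor on all 3 arrays.

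Genes of the mature fat cell were above the floor in 15 of 22 cases (68.2%, against 54.7% of all genes). Many of these are enzymes of lipid synthesis that other cells also use. Acly, which makes the acetyl-CoA for lipids, had 7575 ± 894, the adiponectin receptor gene Adipor1 5764 ± 415, the desaturase Scd1 5607 ± 1246 and, on MOE430B, Agpat2 4677.5 ± 1149. The lipid droplet gene Cidec (59.7 ± 19.7), the hormone Lep (211 ± 169) and the insulin-responsive glucose transporter Slc2a4 were not above it on all 3 arrays. The resistin gene Retn was, at 1351 ± 315, as were Plin4 (995 ± 285), Lipe (943 ± 186) and Pnpla2 (1929 ± 320). The rest of those not above it on all 3 arrays were Gpd1 (223 ± 213), Mgll (929 ± 534), Aqp7 (105 ± 80.6) and Rbp4 (807 ± 328). Of the adipose progenitor markers 7 of 8 were above the floor, among them Itgb1 (16282 ± 1966), Pdgfrb (5440.1 ± 1834), Pdgfra (4093 ± 1202) and Cd24a (3769.7 ± 1477), most of which fibroblasts also carry. Pi16 (227 ± 121) was not. Dpp4 counted through 1 of its 4 probe sets, while its brightest on MOE430A read 82.1 ± 64.3, under the floor on all 3 arrays.

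**Figure D4:**
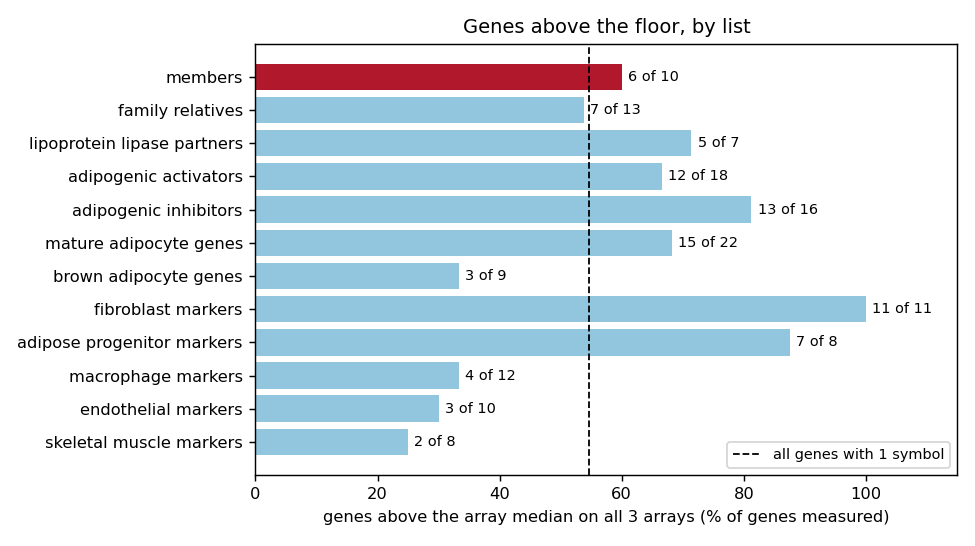
Share of measured genes above the array median on all 3 arrays (%), by list, with the 10 members in red and all named genes as the dashed line (54.7%). The members stand at 6 of 10, inhibitors of fat cell formation at 13 of 16 and macrophage markers at 4 of 12.

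Slc2a4 was the 1 gene of these lists that limma called, in a comparison whose replicate 1 arm is a single array with no spread of its own. Its probe set 1415958_at read 325, 1244 and 887 in replicates 1, 2 and 3, with an adjusted p of 0.0297 in limma. Since that single array lay under its floor of 689, the fold is a bound, at least 1.52-fold lower in replicate 1. The call was lost with quantile normalization between arrays (adjusted p = 0.416, limma), with an intensity trend (0.0786) and with no filter on dim probe sets (0.783), and was kept at adjusted p of 0.0309 and 0.0305 with pseudocounts of 1 and 64. Of the arrays compared, that of replicate 2 shared its scan day with replicate 1.

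The spread between replicates differed from member to member. The 8 member probe sets above the floor on MOE430A had a median SD of 0.29 on the log2(signal + 16) scale, beside 0.24 for all 9600 above it. Cebpb, on 1418901_at, had an SD of 0.10, larger than that of only 12.5% of them, and Lpl, on 1415904_at, the 0.77 given above. Dlk1 had 0.49, larger than that of 90.3%. Without replicate 1 the members' median was 0.11, beside 0.18 for all.

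**Figure D5:**
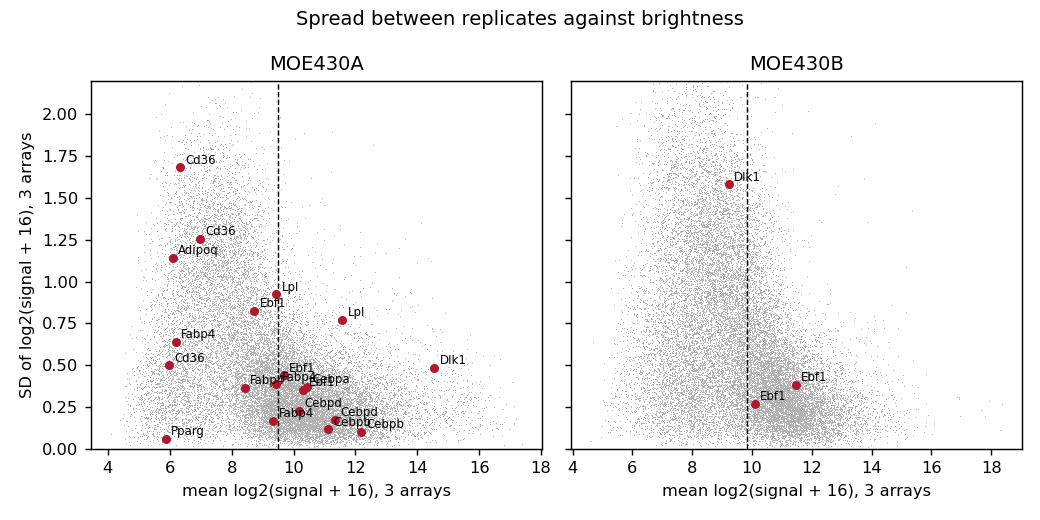
SD of log2(signal + 16) over the 3 arrays against its mean for all probe sets of MOE430A (left) and MOE430B (right), members in red, with the mean log2 floor dashed; probe sets with an SD above 2.2 lie outside the axis. Cebpb (0.10 and 0.12) sits at the low edge of bright probe sets, and Lpl (0.77) and Dlk1 (0.49) sit above most of theirs.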

How the data were processed

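RNA of the 6 samples was labelled with biotin and put on Affymetrix arrays, 3 of each type. The authors deposited MAS5 signal intensities, per the submitters' processing notes, on a linear scale. For MAS5, a version and settings were not given in the sources used. Leaving out 2% of probe sets at each end, the array means were equal within a type (1500.5 and 1500.2), which shows scaling to a common target. Of the deposited instrument records, which hold other entries, scan day and fluidics station were used. There were 22626 and 22511 probe sets after 64 controls were set aside. GEO's platform annotation, some of it old, gave 1 symbol to 20380 and 14661, several to 691 and 245 (not named), and none to 1555 and 7605. Of those with 1 symbol, 20351 and 14486 had a gene identifier found in RefSeq and took its current symbol, changed or not.

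The members and lists were chosen with earlier results of these data known, so no list was tested. All members are named with every probe set. Of other lists, the text names the 4 brightest genes above the floor, up to 3 not above it, and any called. The brightest were ranked across both array types, so Gpihbp1, Agpat2, Tmem26 and Prdm16, read on MOE430B, may rank high through its scale. Adam17, Retn, Plin4, Lipe, Pnpla2, Gpd1, Mgll, Aqp7, Rbp4, Dpp4, Ppara and Ppard were named after their values were seen. A gene's value is that of its brightest probe set on MOE430A, else on MOE430B. Replicate 1 was compared with 2 and 3 by limma (3.58.1, R 4.3.3) on log2(signal + 16), for probe sets whose mean log2 signal exceeded the mean log2 floor, with Benjamini-Hochberg adjustment over all of them and a threshold of 0.05. This leaves 1 residual degree of freedom and takes replicate 1 to vary as the others do. The scale understates the change of dim genes. The fit was checked on simulated data drawn with the same variance on every array. That check could not test whether replicate 1 varies as the others do. Alternatives were other floors, pseudocounts, filters, normalization and left-out replicates.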

Additional observations from a re-analysis of the deposited data

How the results depend on the processing

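The count of 6 members above the floor (60%, against 54.7% of all genes) was 5 of 10 with the 75th percentile of the array (30.4% of all genes), 7 with a fixed signal of 200 (79.7%), 6 with the highest tryptophan control (44.0%), 6 with only the first-listed probe set of a gene (42.3%) and 6 with MOE430A alone (50.01%), so how the members stand against all genes changed with the floor. It was 6 without replicate 1 (57.7% of all genes), 7 without replicate 2 (57.4%) and 6 without replicate 3 (58.3%). The number of MOE430A probe sets called between replicates was 78, and 164 with an intensity trend, 0 with no filter on dim probe sets (lowest adjusted p = 0.73, limma) and 0 with quantile normalization (lowest adjusted p = 0.179, limma). On MOE430B it was 0 under every alternative run. The 11 tested member probe sets kept their direction and stayed uncalled in these 5 refits, and kept their direction without replicate 2 or 3. The members' median SD was 0.11 to 0.35 on MOE430A and 0.21 to 0.43 on MOE430B with 1 replicate left out. The cause of these shifts was not tested. No paired analysis was possible because the 2 groups that share replicate numbers are array types with different probe sets and scaling. Signal over background limits what can be said of Pparg, Cd36, Adipoq and Fabp4.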

Other observations

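Genes of brown fat cells were above the floor in 3 of 9 cases, beside 54.7% of all genes. The heat-producing uncoupling protein gene Ucp1 read 112, 74.3 and 76.0 (87.3 ± 21.1) and Cidea 86.6 ± 50.2, both under the floor, and Elovl3 (710.5 ± 113) was under it on 1 array. Tmem26, a surface marker of beige fat cells, read 2437, 5089 and 6643 on MOE430B (4723 ± 2127), lowest in replicate 1. Prdm16, a regulator of brown fat identity, had 1399.7 ± 92.2 on MOE430B, under the highest tryptophan control there (1989 to 2348), and the deiodinase Dio2 had 838.5 ± 78.1.

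Markers of other tissues that use fatty acids were mostly not above the floor, where 54.7% of all genes were. Of the endothelial markers 3 of 10 were, with Kdr at 1407 ± 199.9, Egfl7 at 791 ± 124, and Flt1, which counted through another probe set than its brightest (1163 ± 873). Pecam1 (141 ± 40.3), Cdh5 (419.6 ± 90.9) and Tek (214 ± 169) were not. Of the skeletal muscle markers 2 of 8 were, Des at 1109 ± 178 and Ckm at 1064 ± 150.0, and the muscle regulators Myod1 (473 ± 147) and Myog (177 ± 74.5) were not, nor was Acta1 (1264 ± 614) on all 3 arrays.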
